A study of Rattus norvegicus with 24 samples.

Results

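Gad1 and Cbln1 are 2 of the 32883 genes counted in 22 of the 24 libraries of this series, and they were chosen by their identifiers, ENSRNOG00000000007 and ENSRNOG00000000010. Both were picked because earlier results on the same counts had them higher in oligodendrocyte precursor cells (OPCs) than in oligodendrocytes (OLs), so every OPC and OL difference of these genes given here is a description without a test. The counts come from primary cells of the cortex of Sprague Dawley rat pups of postnatal days 0 to 4 in 6 conditions with 4 libraries each. OPCs were kept for 24 hours in proliferation medium either untreated, with the vehicle DMSO at 0.04%, or with 8 µM dolutegravir (DTG), an antiretroviral drug that inhibits the HIV integrase. OLs had the same 3 treatments for 24 hours of proliferation and then for 72 hours in differentiation medium. The groups therefore share their origin, the enrichment of OPCs from mixed glia by shaking and the proliferation period, and the cultures were enriched rather than pure. According to the study's methods, replicates are cultures of independent litters. Libraries with the same replicate number are taken here as 1 litter.

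Gad1 encodes a glutamate decarboxylase, an enzyme that makes the inhibitory transmitter GABA from glutamate, and it is best known from inhibitory neurons. Cbln1 encodes a secreted cerebellin, which links neurexins on axons with a delta-type glutamate receptor on the other side of the synapse and is best known from cerebellar granule cells. OPCs are unusual among glia in that neurons form synapses with them, some of which release GABA, and these contacts are lost as the cells differentiate.

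Gad1 lies in the files of 22 libraries on the plus strand at chr3:56861396-56902157, with 19 separate exonic blocks that add up to 3866 bases. Cbln1 lies there on the plus strand at chr19:20607507-20611316, with 3 exonic blocks that add up to 2444 bases. The submitters' processing notes name the build Rnor_6.0. The 2 libraries of untreated replicate 3 of OPCs and of OLs were counted on another annotation of 30560 genes, with an exonic length of 3391 bases for Gad1 and 2491 bases for Cbln1, and the build of these 2 files is not given in the sources used here. Every comparison with untreated cells was limited to the 21651 identifiers in all 24 files.

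The sequence before the start site is shown for Gad1 and for its paralogue Gad2, which encodes the second glutamate decarboxylase, because both genes were lower in OLs and both make the same product. The sequences cover the 250 bases before the annotated start in RefSeq's table for the build GRCr8, another build than that of the counts, at chr3:75777202-75777451 for Gad1 and chr17:89671468-89671717 for Gad2, both on the plus strand. Cbln1 has no entry in the table. Capitals mark matches of either strand to TATAAA (the sequence of the TATA box) and to CANNTG (the E-box). They also mark TAATTA (a core that many homeodomain factors bind) and GGGCGG (the GC box). A match to the GC box on the opposite strand reads CCGCCC. Matches count at any position of the window.
Gad1: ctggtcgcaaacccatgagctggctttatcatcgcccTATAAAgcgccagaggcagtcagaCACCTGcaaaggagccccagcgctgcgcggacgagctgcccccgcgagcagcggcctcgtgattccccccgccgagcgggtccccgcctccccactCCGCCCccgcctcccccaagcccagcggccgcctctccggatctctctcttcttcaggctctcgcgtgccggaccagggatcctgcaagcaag
Gad2: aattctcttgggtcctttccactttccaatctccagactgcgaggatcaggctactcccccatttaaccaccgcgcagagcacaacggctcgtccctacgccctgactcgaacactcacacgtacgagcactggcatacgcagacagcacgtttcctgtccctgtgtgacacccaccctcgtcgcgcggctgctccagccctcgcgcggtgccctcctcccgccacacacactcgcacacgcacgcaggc
The Gad1 window held 1 match to TATAAA, 213 bases before the start. It held 1 to the E-box, 189 bases before the start, and 1 to the GC box, 93 bases before the start. It held none to the homeodomain core, and the 3 matches do not overlap. Whether any of these matches is used was not tested. The Gad2 window held no match to any of the 4 motifs. Among all 33469 windows of this length, 12.9% held TATAAA, 65.5% the E-box, 4.86% the homeodomain core and 30.5% the GC box. Guanine and cytosine made up 68.4% of the Gad1 window and 62% of the Gad2 window, against a median of 51.2% over all windows.

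The libraries held from 13241279 to 18499994 gene counts. Levels are given as CPM, the count relative to the size of its library after all 24 libraries were scaled together with the TMM method, and 1 count was worth between 0.0512 and 0.0904 CPM. Levels of marker genes with an identifier are given beside the labelled cell types. The identifiers come from the study's tables, which hold mainly genes reported as differing between stages or with DTG. These levels are therefore no independent check of the labels. The summed level of Pdgfra and Cspg4, 2 of 7 OPC markers, lay between 563 and 1200 CPM in OPCs and between 135 and 378 CPM in OLs. The sum of Mbp, Mog and Enpp6, 3 of 9 OL markers, lay between 113 and 357 CPM in OPCs, between 4100 and 11900 CPM in untreated and DMSO-treated OLs, and between 1820 and 4530 CPM in DTG-treated OLs. Symbols were known for no astrocyte or microglia marker, so these cells were not followed.

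Gad1 was present in all 24 libraries and was much higher in OPCs than in OLs under every treatment. In untreated OPCs its level was 22.3, 14.7, 28.8 and 50.1 CPM in replicates 1 to 4. In DMSO-treated OPCs it was 21.97, 18.5, 27.0 and 39.7 CPM. In DTG-treated OPCs it was 21.3, 21.6, 23.8 and 55.5 CPM. The means were 29.0 ± 15.2, 26.8 ± 9.30 and 30.6 ± 16.7 CPM (SD, n = 4) without treatment, with DMSO and with DTG, and the 3 groups overlapped. In OLs the levels were 2.90, 0.949, 0.484 and 2.36 CPM without treatment, from counts that began at 7. With DMSO they were 3.63, 0.525, 0.747 and 1.42 CPM. With DTG they were 2.97, 0.542, 0.155 and 3.01 CPM, and the lowest of these rests on 2 counts, with an exact 95% Poisson interval of 0.242 to 7.22 counts that covers counting error only. The OL means were 1.67 ± 1.14, 1.58 ± 1.42 and 1.67 ± 1.53 CPM (SD, n = 4), with overlap among all 3 groups.

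Cbln1 was also present in all 24 libraries and was also higher in OPCs than in OLs, with a smaller ratio of highest to lowest litter than Gad1 in each of the 6 groups. In untreated OPCs its level was 14.0, 13.4, 4.86 and 13.8 CPM in replicates 1 to 4, and the low value belongs to the library counted on the other annotation. In DMSO-treated OPCs it was 13.2, 10.9, 8.59 and 12.8 CPM. In DTG-treated OPCs it was 10.1, 9.04, 7.50 and 11.4 CPM. The OPC means were 11.5 ± 4.45, 11.4 ± 2.11 and 9.50 ± 1.65 CPM (SD, n = 4) without treatment, with DMSO and with DTG, and the groups overlapped. In OLs the levels were 0.920, 1.64, 1.59 and 1.498 CPM without treatment. With DMSO they were 1.28, 1.87, 1.91 and 2.10 CPM. With DTG they were 1.45, 0.542, 1.24 and 0.816 CPM, so the DTG-treated OLs were mostly at the lower end. The OL means were 1.41 ± 0.333, 1.79 ± 0.354 and 1.01 ± 0.408 CPM (SD, n = 4), from 6 to 28 counts per library.

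**Figure D1:**
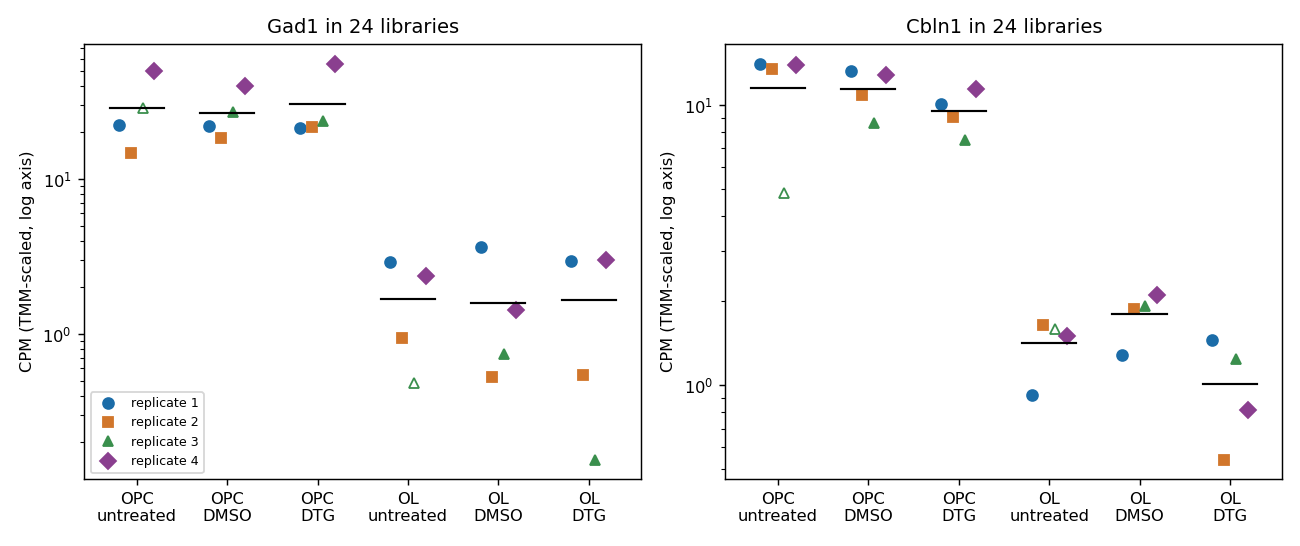
Level of Gad1 (left) and Cbln1 (right) in the 24 libraries, in CPM on a log axis, with 1 point per library, the shape giving the replicate number, open points for the 2 libraries counted on another annotation and a bar at the mean of each group of 4. All 12 OPC libraries lie above all 12 OL libraries for both genes, from 14.7 CPM upward against at most 3.63 CPM for Gad1 and from 4.86 CPM upward against at most 2.10 CPM for Cbln1. Both genes were picked for being higher in OPCs, and the share of all genes that separate as fully was not counted.

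Ordered by mean level, Gad1 was highest in DTG-treated OPCs, followed by untreated OPCs, DMSO-treated OPCs, untreated OLs, DTG-treated OLs and DMSO-treated OLs. Cbln1 was highest in untreated OPCs, followed by DMSO-treated OPCs, DTG-treated OPCs, DMSO-treated OLs, untreated OLs and DTG-treated OLs. For both genes the step from OPCs to OLs was the only one at which neighbouring groups did not overlap. Both were picked for this direction, and how many of all genes separate as fully was not counted. Per kilobase of exonic length, the scale on which genes can be compared, DMSO-treated OPCs had 6.93 CPM of Gad1, 4.65 CPM of Cbln1 and 1.33 CPM of Gad2. This scale depends on the annotation, as the length of Gad2 was 5561 bases here and 1967 bases in the other annotation. On the other annotation, untreated OPCs of replicate 3 had 8.51 CPM per kilobase of Gad1, 1.95 of Cbln1 and 3.00 of Gad2. In OLs the order of Gad1 and Cbln1 was not fixed. Cbln1 stood at 0.575, 0.733 and 0.413 CPM per kilobase without treatment, with DMSO and with DTG, and Gad1 at 0.437, 0.409 and 0.432, and within each group the libraries did not all share 1 order. Among genes with at least 10 counts in 2 libraries of the group, between 43.4% and 46.2% had a lower level per kilobase than Gad1 in OPCs and between 4.5% and 5.73% in OLs. For Cbln1 these shares were between 30.8% and 39.2% in OPCs and between 4.28% and 9.73% in OLs, so both genes were at middling levels in OPCs and among the weakest counted in OLs.

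The level of Gad1 left in OLs differed between litters. With DMSO, OLs held 16.5%, 2.84%, 2.77% and 3.59% of the OPC level of the same litter in replicates 1 to 4. With DTG the shares were 13.9%, 2.51%, 0.649% and 5.43%, and without treatment they were 13.02%, 6.47%, 1.68% and 4.72%. Replicate 1 kept the largest share under all 3 treatments. For the group means, Gad1 was 16.9-fold higher in OPCs than in OLs with DMSO, 18.3-fold higher with DTG and 17.3-fold higher without treatment.

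For Cbln1 the OLs held 9.73%, 17.2%, 22.2% and 16.4% of the OPC level with DMSO in replicates 1 to 4. With DTG they held 14.4%, 5.999%, 16.5% and 7.16%, and without treatment 6.57%, 12.3%, 32.7% and 10.8%. Replicate 3 kept the largest share under all 3 treatments. Its OPC level, by which the share is divided, was also the lowest under each treatment. It was 4.86, 8.59 and 7.50 CPM without treatment, with DMSO and with DTG. The group means were 6.34-fold higher in OPCs with DMSO, 9.40-fold higher with DTG and 8.16-fold higher without treatment.

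On the log2 scale the fitted difference of OLs from OPCs for Gad1 was -4.04 (SE 0.51) with DMSO, -4.16 (SE 0.64) with DTG and -4.10 (SE 0.60) without treatment. For Cbln1 it was -2.64 (SE 0.28), -3.22 (SE 0.33) and -3.03 (SE 0.40). Of all genes tested, 0.399% had a lower fitted difference than Gad1 and 2.86% a lower one than Cbln1 with DMSO, and the choice of the genes fixed this direction. By edgeR's quasi-likelihood test 32.3% of 13023 genes passed in either direction with DMSO, 39.3% of 13171 with DTG and 24.6% of 12158 without treatment, where passing means a Benjamini-Hochberg adjusted p under 0.05 together with more than 1 log2 unit of change. The genes that passed as lower in OLs made up 18.3%, 22.9% and 13.2% of those tested. In bulk RNA, fewer cells of a type and less RNA per cell cannot be told apart. ERCC transcripts are synthetic RNA added to each sample. When libraries were scaled to them, the median gene stood at -1.48 with DMSO, -1.35 with DTG and -0.99 without treatment. Cbln1 then stood at -4.03 with DMSO and -4.44 with DTG. Over all alternative runs, ERCC scaling among them, Gad1 was at most -3.72, -3.69 and -3.71 in these 3 comparisons. Cbln1 was at most -2.76 without treatment. Both genes thus stayed below the median gene, and they had been picked for being lower in OLs.

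The response of Gad1 to DTG was within the spread between litters at both stages. In OPCs, DTG-treated cells were higher than DMSO-treated cells in 2 of 4 litters, and the log2 fold change was 0.19 (SE 0.36, 95% interval -0.62 to 1.01, edgeR adjusted p = 0.909). Without the DTG-treated library of replicate 4, which had 55.5 CPM, the estimate was -0.26, so that library alone set its sign. In OLs DTG-treated cells were again higher in 2 of 4 litters, with a log2 fold change of 0.07 (SE 0.72, 95% interval -1.48 to 1.62, edgeR adjusted p = 0.977). The OL estimate ranged from -0.38 without the DTG-treated library of replicate 4 to 0.90 without the DMSO-treated library of replicate 1, and with the replicate number as a block it was -0.02. The intervals leave room for a change of more than 1 log2 unit in either direction in OLs and for a rise of that size in OPCs.

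Cbln1 was lower in DTG-treated than in DMSO-treated OPCs in all 4 litters, by 0.25 on the log2 scale (log2 fold change -0.25, SE 0.23, 95% interval -0.77 to 0.26), and did not pass the test (edgeR adjusted p = 0.906). In OLs it was lower with DTG in 3 of 4 litters, and the log2 fold change was -0.82 (SE 0.36, 95% interval -1.59 to -0.05). Its unadjusted p was 0.0389 and its adjusted p 0.362 by edgeR's quasi-likelihood test, so it did not pass. The estimate stayed negative under all 19 alternatives, between -1.15 and -0.30, with adjusted p-values between 0.225 and 0.851. Relative to ERCC transcripts, Cbln1 in OPCs was 0.10 higher with DTG, while the median gene was 0.31 higher. Neither gene was called in either stage. The background was 0% of 13270 genes in OPCs, where 66 genes had an unadjusted p under 0.05 and DESeq2 also called 0, and 0.559% of 12710 genes, or 71, in OLs (0.354% higher and 0.205% lower), where a fit with a replicate block called 168.

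The difference of the DTG response between stages was tested as an interaction over 16 libraries. For Gad1 the response in OLs minus that in OPCs was -0.10 on the log2 scale (SE 0.88, 95% interval -1.94 to 1.75, edgeR adjusted p = 1.00). For Cbln1 it was -0.54 (SE 0.40, 95% interval -1.38 to 0.29, edgeR adjusted p = 1.00). No gene of 13734, or 0%, was called by edgeR, 366 had an unadjusted p under 0.05, and DESeq2 called 10.

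The vehicle comparison uses the same DMSO-treated libraries as the comparison with DTG, so the 2 comparisons are not independent. In OPCs, DMSO-treated minus untreated cells gave a log2 fold change of -0.13 (SE 0.40) for Gad1 and -0.01 (SE 0.34) for Cbln1, both with an edgeR adjusted p of 1.00. Without the untreated replicate 3 library, which had the lowest Cbln1 level among OPCs, the Cbln1 estimate was -0.25. In OLs the log2 fold change was -0.10 (SE 0.69, edgeR adjusted p = 0.969) for Gad1. For Cbln1 in OLs, DMSO-treated cells were higher in 4 of 4 litters by 0.31 (SE 0.29, 95% interval -0.34 to 0.96, edgeR adjusted p = 0.756), and relative to ERCC transcripts the value was -0.12 where the median gene stood at -0.42. No gene was called with edgeR, 0% of 12182 in OPCs and 0% of 11893 in OLs, while 70 and 871 genes had an unadjusted p under 0.05 and DESeq2 called 0 in both.

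**Figure D2:**
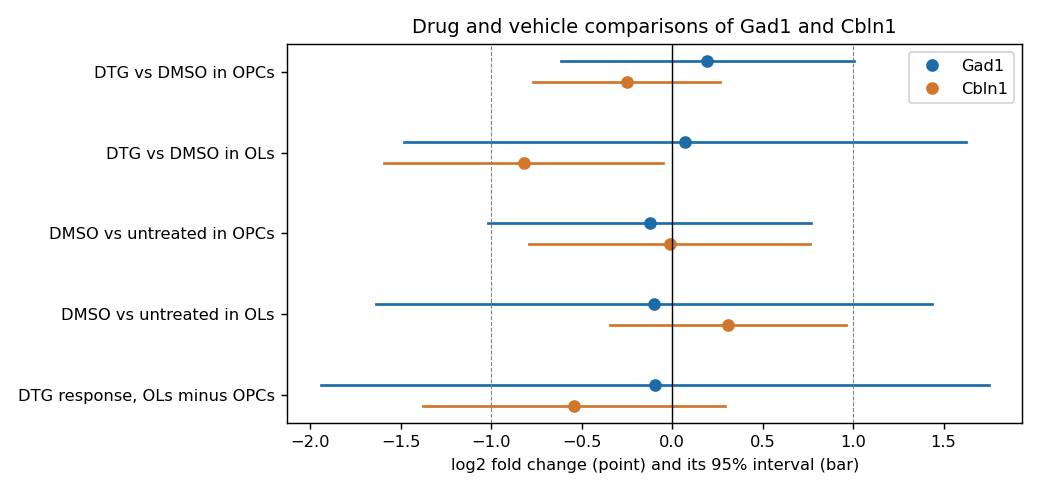
Log2 fold change of Gad1 and Cbln1 (points) with its 95% interval (bars) in the drug and vehicle comparisons, n = 4 libraries per group, with dashed lines at the fold change threshold of 1 in either direction. Every interval includes 0 except that of Cbln1 in OLs with DTG, which runs from -1.59 to -0.05 before adjustment over genes.

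Within a treatment, the litters lay farther apart in Gad1 than the treatment means of the same stage did. In OPCs replicate 4 had the highest level and replicate 3 the second highest under all 3 treatments, and the highest library was 3.41-fold above the lowest without treatment, 2.15-fold with DMSO and 2.60-fold with DTG. In OLs replicates 1 and 4 were above replicates 2 and 3 under all 3 treatments, with a highest library 6-fold, 6.92-fold and 19.5-fold above the lowest. Replicates 2 and 3 share 1 date in their library names, and each of the other dates holds 1 litter, so a comparison within dates is no more than the values of each litter above. The part of the date in the Gad1 levels was not tested. For Cbln1 in OPCs, replicate 3 was lowest under all 3 treatments and the highest library was at most 2.88-fold above it. In OLs the order of the litters for Cbln1 differed with each treatment.

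Genes that work with Gad1 could be followed where the study's tables pair a symbol with the identifier, which was so for 9 of 54 genes on the lists. The lists covered GABA synthesis, transport and receptors, and cerebellins, their C1q-like relatives and the receptors and partners of both. Those tables hold mainly genes reported as differing between stages or with DTG, so the named genes were in part selected for falling in OLs, and their count is no evidence of a direction. All 9 were lower in OLs with DMSO at the thresholds, 8 of 9 with DTG and 6 of 8 tested without treatment, beside 18.3%, 22.9% and 13.2% of all genes tested. The median log2 fold change of the list was -1.83, -2.12 and -2.15 in these comparisons, against -0.12, -0.11 and -0.10 over all genes tested. In the drug and vehicle comparisons none was called, of 9 tested in OPCs with DTG, 6 in OLs with DTG, 9 in OPCs with DMSO and 5 in OLs with DMSO, beside 0%, 0.559%, 0% and 0% of all genes tested. The list medians there were 0.18, -0.12, -0.05 and -0.35, against 0.00, 0.01, 0.01 and -0.04 over all genes.

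Gad2 makes GABA as Gad1 does. Its level in OPCs was 6.70 ± 2.82, 7.42 ± 2.39 and 9.17 ± 1.75 CPM (SD, n = 4) without treatment, with DMSO and with DTG, and in OLs it was 0.863 ± 0.528, 0.539 ± 0.271 and 0.674 ± 0.239 CPM. In replicate 2 it was 3.05 CPM in untreated, 3.84 CPM in DMSO-treated and 8.52 CPM in DTG-treated OPCs, while the other 3 litters lay between 5.91 and 10.8 CPM. Over the 4 litters the response of Gad2 to DTG in OPCs was 0.31 on the log2 scale (SE 0.30), within the spread.

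Slc32a1 encodes the transporter that loads GABA into vesicles. Its level in DMSO-treated OPCs was 20.5, 13.9, 13.7 and 40.1 CPM in replicates 1 to 4, and replicate 4 was also highest without treatment and with DTG, at 39.98 and 38.3 CPM. In DMSO-treated OLs its mean was 2.17 ± 2.14 CPM (SD, n = 4), and its log2 fold change between stages was -3.30 with DMSO. Slc38a1, a transporter that takes up glutamine, the source of glutamate, was at 52.9 ± 12.2 CPM in DMSO-treated OPCs and 21.96 ± 6.21 CPM in DMSO-treated OLs. Its stage difference was -0.63 (SE 0.24) with DTG and -0.92 (SE 0.28) without treatment, and neither passed the fold threshold. In OLs it was higher with DTG than with DMSO in 4 of 4 litters, with a log2 fold change of 0.81 (95% interval 0.23 to 1.39, edgeR adjusted p = 0.203), and did not pass.

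Gabra3, Gabra5 and Gabrg3 encode receptor subunits, parts of the chloride channels that GABA opens. Gabra5 was at 7.96 ± 2.74 CPM in DMSO-treated OPCs and 0.349 ± 0.444 CPM in DMSO-treated OLs (SD, n = 4), with 0 counts in 1 OL library of each treatment. Gabra3 was at 4.29 ± 1.57 and 1.19 ± 0.503 CPM and Gabrg3 at 1.82 ± 0.730 and 0.779 ± 0.104 CPM in the same groups. Cbln4, a relative of Cbln1 that also binds neurexins, had 230, 27, 78 and 93 counts in DMSO-treated OPCs and 1, 0, 1 and 0 counts in DMSO-treated OLs. Adgrb3 and Dcc were on the list of receptors and partners of cerebellins and of their C1q-like relatives. Between stages they differed less, with log2 fold changes of -1.25 and -1.23 with DMSO.

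**Figure D3:**
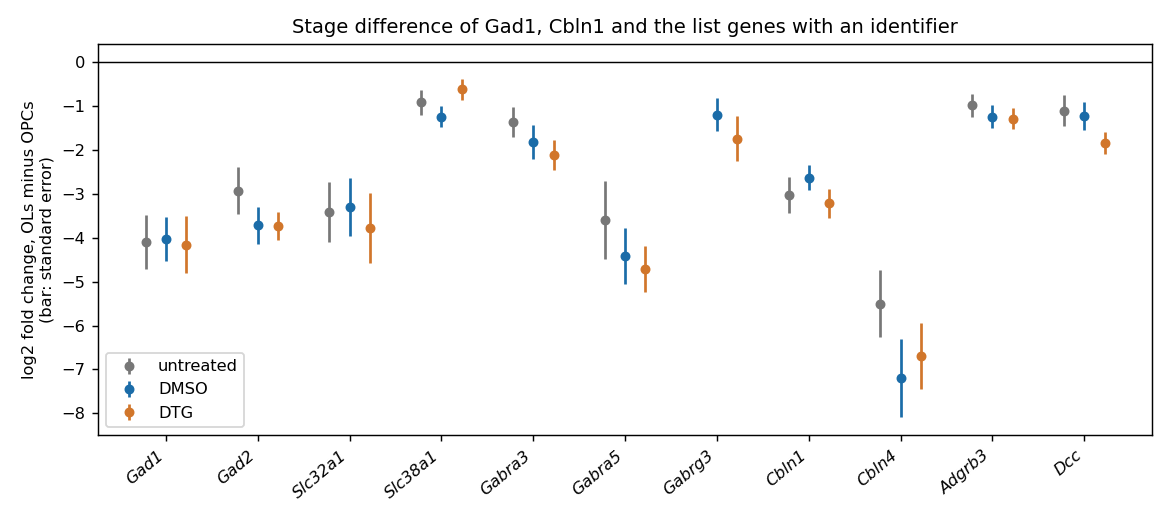
Fitted log2 fold change of OLs against OPCs (points) with its standard error (bars) for Gad1, Cbln1 and the 9 list genes with an identifier, for each treatment with n = 4 libraries per stage. Gad1 lies between -4.16 and -4.04 and Cbln1 between -3.22 and -2.64, the Cbln4 point with DMSO rests on 2 counts in OLs, and Gabrg3 was not tested without treatment.

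Of the 7 markers of neurons and of the interneuron lineage with an identifier, all were called lower in OLs with DMSO and with DTG. Without treatment 5 of 7 were, and Map2 and Dlx5 did not pass. Of all genes tested, 18.3%, 22.9% and 13.2% were called lower in OLs with DMSO, with DTG and without treatment. The symbols of the 7 markers come from the same tables, so the counts are no evidence of a direction. In untreated cells of replicate 2, Map2 stood at 116 CPM in OPCs and 168 CPM in OLs, and Dcx at 35.7 and 36.4 CPM. The sum of Dlx1 and Dlx5, transcription factors of the interneuron lineage and 2 of 10 markers on its list, lay between 12 and 41 CPM in OPCs and between 1.17 and 11.2 CPM in OLs. The sum of 5 of 11 neuron markers, Dcx, Nsg2, Snap25, Stmn2 and Map2, lay between 793 and 1480 CPM in OPCs and between 264 and 493 CPM in OLs, and most of it came from Nsg2 and Map2. None of these 7 markers was at 0 in any library. In OPCs the sum of Dlx1 and Dlx5 was highest in replicates 1 and 4, at 36.3 and 29.2 CPM with DMSO against 12 and 15.8 CPM in replicates 2 and 3, and in OLs it was also highest in replicates 1 and 4, at 7.91 and 8.70 CPM with DMSO against 1.87 and 1.49 CPM. The part of such cells in the levels of Gad1 and Cbln1 was not tested.

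**Figure D4:**
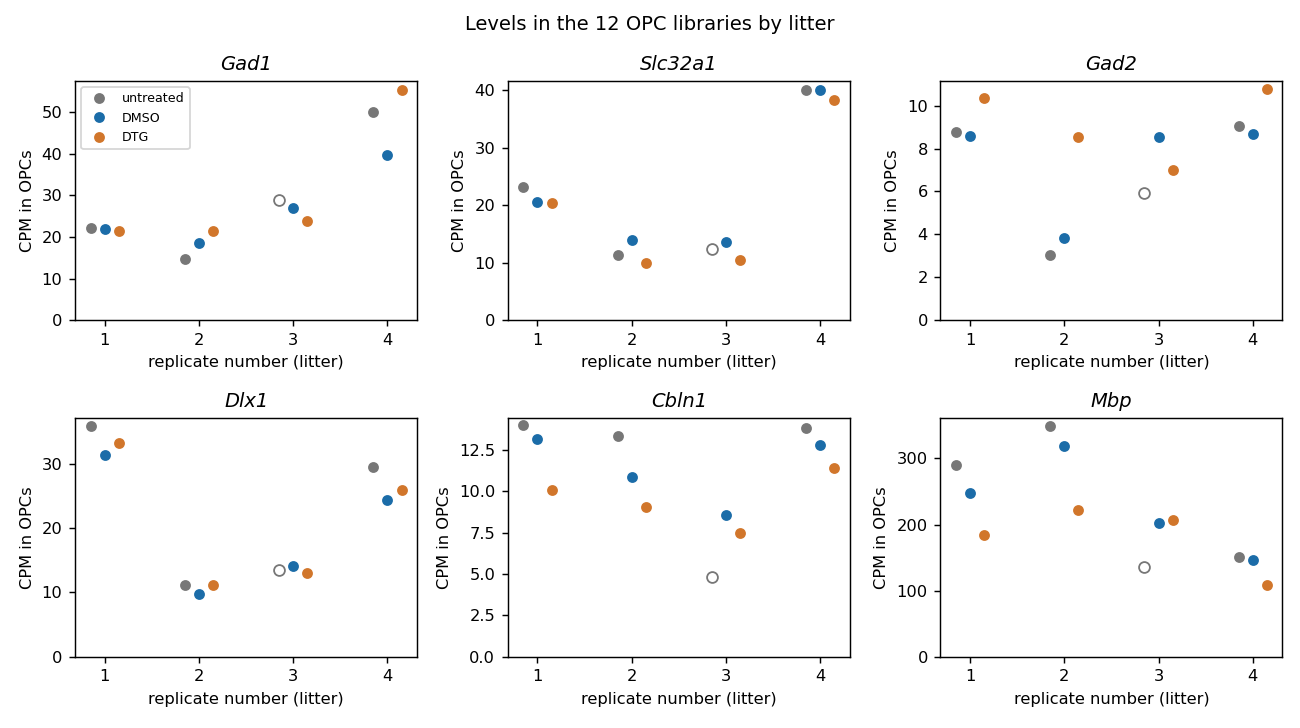
Level in CPM of Gad1, Slc32a1, Gad2, Dlx1, Cbln1 and Mbp in the 12 OPC libraries by replicate number (litter), colored by treatment, with open points for the untreated library counted on another annotation. Gad1 and Slc32a1 are highest in replicate 4 under each treatment, Dlx1 is highest in replicates 1 and 4, and Cbln1 is lowest in replicate 3.

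Among 1687 genes with a symbol and a mean log2 CPM of at least 1, those most like Gad1 over the 22 libraries of 1 annotation were Celf5 (Pearson's r 0.977), Tmem130 (0.972), Disp2 (0.970), Grb10 (0.969) and Dgkg (0.967). Those most like Cbln1 were Cdc6 (0.977), Nsl1 (0.975), Lig1 (0.975, a DNA ligase of replication), Gins1 (0.974) and Aurka (0.974, a mitotic kinase). Gad1 and Cbln1 had an r of 0.881 with each other, which put Cbln1 at place 415 for Gad1 and Gad1 at place 528 for Cbln1. These values span both stages, so a shared difference between stages enters them, and its part was not tested. Symbols come from the study's tables, which hold mainly genes reported as differing between stages or with DTG. The likest genes and places, here and below, therefore hold within that set and not among all genes.

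Within 11 OPC libraries of 1 annotation, after the mean of each group was removed, the genes most like Gad1 among 1886 were Dync1i1 (0.976), Dgkg (0.976), Eef1a2 (0.954), Rasgrf1 (0.952) and Tmem130 (0.946). For Cbln1 they were Emilin3 (0.938), Ptpn5 (0.934), Tcf19 (0.919), Adcy3 (0.919) and LOC691995 (0.917). The lists for the 2 genes had no gene in common, which says little with 5 of 1886 genes on each. Gad1 and Cbln1 had an r of 0.349 with each other. Of the genes on the fixed lists, Gad1 had an r of 0.860 with Slc32a1, 0.838 with Gabra5, 0.653 with Gad2, 0.574 with Dlx5 and 0.483 with Dlx1, but of -0.024 with Gabrg3, -0.063 with Gabra3 and -0.163 with Slc38a1. With lineage markers its r was -0.970 for Mbp, -0.875 for Pdgfra, -0.741 for Enpp6, -0.447 for Cspg4 and -0.067 for Mog. With neuron markers it lay between -0.224 for Dcx and 0.514 for Nsg2. Cbln1 had an r of 0.807 with Nsg2, 0.776 with Stmn2, 0.711 with Dlx5 and 0.701 with Slc32a1. Its r was -0.41 with Dcx, -0.315 with Map2, -0.0067 with Snap25 and -0.715 with Gabra3. It was 0.622 with Dlx1, 0.525 with Gabra5, 0.295 with Gad2, 0.078 with Slc38a1 and -0.578 with Gabrg3. With Cbln4, Adgrb3 and Dcc the r of Cbln1 was 0.59, -0.559 and -0.535. With lineage markers the r of Cbln1 was -0.801 for Enpp6, -0.38 for Pdgfra, -0.37 for Mbp, -0.151 for Mog and 0.405 for Cspg4. Neither gene followed the GABA genes or the neuron markers as a group. The 11 libraries come from 4 litters, whose libraries share their cultures, and these values describe likeness only.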

How the data were processed

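RNA of rat OPCs and OLs was selected for poly(A) transcripts and sequenced with paired ends. The authors aligned reads with STAR 2.5.2b, counted unique reads in exons with featureCounts of Subread 1.5.2 and deposited raw counts per gene and library beside exonic lengths in bases (tools and build per the submitters' processing notes). Use of strand is not given in the sources used here. ERCC counts, 1.06% to 7.19% of each library, were left out of library sizes and tests. Symbols came from 2107 pairs in the study's tables, which also hold the authors' own comparisons and normalized values, not used here.

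Each comparison used its own libraries in R 4.3.3 with edgeR 4.0.16 (filterByExpr, TMM, quasi-likelihood F test without covariates, Benjamini-Hochberg over all genes tested). Standard errors were taken as the log2 fold change divided by the square root of F. The members and lists were chosen with earlier results of these data known, and 1 gene of the lists is not reported here. The named genes were both members, the list and marker genes with an identifier, and the 5 likest genes per member and library set, on log2 CPM with a prior count of 2. DESeq2 1.42.0, other scalings and filters, all 24 libraries in 1 fit, a replicate block and leaving out libraries were alternatives, and the scripts were tested on simulated data. Replicate numbers were taken as litters from the study's methods. Deviations from group means of same-numbered libraries correlated at 0.799, -0.146, 0.641 and 0.875 for DTG and DMSO in OPCs and at 0.481, 0.447, 0.504 and -0.0544 in OLs. For OLs and OPCs they correlated at 0.454, 0.0354, 0.0979 and 0.583 with DMSO, at 0.385, -0.0885, 0.0812 and -0.414 with DTG and at 0.596, 0.304, 0.688 and 0.303 without treatment, so shares of the OPC level of a litter rest on the stated design more than on these values. More counts mean less counting error, so values in OLs, from 2 to 51 counts for Gad1, are less precise than those in OPCs, from 226 to 959.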

Additional observations from a re-analysis of the deposited data

Results flagged for a closer look

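The 4 libraries of each of the 6 conditions were examined for 1 value far from the others, for Gad1 and for Cbln1, and 2 of the 12 groups held one. Chance flags about 1 in 20 groups. Gad1 stood at 55.5 CPM in DTG-treated OPCs of replicate 4, and its gap to the next library was 0.927 of the range of the group, above Dixon's 95% critical value for 4 samples. Replicate 4 also had the highest Gad1 level among untreated and DMSO-treated OPCs, at 50.1 and 39.7 CPM.

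Cbln1 stood at 4.86 CPM in untreated OPCs of replicate 3, with a gap of 0.932 of the range. This library is 1 of the 2 counted on another annotation, where the exonic length of Cbln1 is 2491 instead of 2444 bases, and replicate 3 was also lowest among DMSO-treated and DTG-treated OPCs, at 8.59 and 7.50 CPM. The other library on that annotation, untreated OLs of replicate 3, was at 1.59 CPM, within the range of its group. The part of the annotation in the low value was not tested.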

How the results depend on the processing

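No call of Gad1 or Cbln1 in a drug or vehicle comparison changed under any alternative run. With the replicate number as a block, the log2 fold change was -0.022 for Gad1 with DTG in OLs and 0.066 for Cbln1 with DMSO against untreated OPCs, on the other side of 0 from the fit without a block, and the pairing changed no call of these genes. Scaled to ERCC transcripts, Cbln1 stood at 0.10 with DTG in OPCs, at 0.091 and -0.12 with DMSO against untreated OPCs and OLs, and at -4.03 and -4.44 in OLs against OPCs with DMSO and with DTG. Without both libraries of replicate 4, an alternative chosen after seeing the data, Gad1 with DTG in OPCs was at -0.014. The cause of these shifts was not tested. Leaving out 1 library at a time, Gad1 ranged from -0.26 to 0.45 with DTG in OPCs, from -0.38 to 0.90 with DTG in OLs, from -0.37 to 0.26 with DMSO in OPCs, from -0.95 to 0.29 with DMSO in OLs and from -0.55 to 0.67 for the interaction. Cbln1 ranged from -0.25 to 0.091 with DMSO in OPCs and kept its sign in the others. The OL and OPC difference of both genes was negative in every alternative run, from -5.12 to -3.69 for Gad1 and from -4.44 to -2.43 for Cbln1. With DTG in OLs, 71 genes were called. The number was 127 with DESeq2, 112 without a filter on low counts, 168 with the block and 34 with all 24 libraries in 1 fit. It was 17 with ERCC scaling and 29 to 89 with 1 library left out. Without both libraries of replicate numbers 1, 2, 3 and 4 in turn, it was 82, 30, 29 and 29. With ERCC scaling, 49 genes were called between DMSO-treated and untreated OLs, and 6526 and 8327 instead of 4203 and 5174 between OLs and OPCs with DMSO and with DTG. In OLs, Gad1 had too few counts to be tested under some of the stricter filters or smaller sets of libraries. Depth limits what can be said of OLs, where a library held as few as 2 counts of Gad1 and 6 of Cbln1.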

Other observations

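Markers of the oligodendrocyte lineage differed among themselves in the OPC litter in which Gad1 was highest. Pdgfra, the receptor that defines OPCs, stood at 754, 887, 662 and 397 CPM in untreated OPCs of replicates 1 to 4, at 800, 662, 747 and 333 CPM with DMSO and at 755, 866, 697 and 490 CPM with DTG. Replicate 4 was therefore lowest under each treatment. Mbp, a myelin protein gene, was lowest in replicate 4 with DMSO and with DTG, at 147 and 108 CPM. Without treatment it was lowest in replicate 3, counted on the other annotation, at 136 CPM against 150 CPM in replicate 4. Enpp6, another OL marker, was lowest in replicate 4 under each treatment. It stood there at 1.24, 0.958 and 0.811 CPM without treatment, with DMSO and with DTG. Cspg4, another OPC marker, was not lowest in replicate 4 under any treatment, at 226, 229 and 262 CPM without treatment, with DMSO and with DTG. The lowest libraries stood at 197, 225.7 and 201 CPM. The lowest without treatment was replicate 3, which was counted on the other annotation, and the gap with DMSO was small. Mog, another myelin gene, was not lowest there either, at 4.29, 3.54 and 3.71 CPM.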
